A study of Mus musculus with 2 samples.

Results

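Adamts5 drew 9 of the 3317 Foxp4 peaks in the deposited list, all of them away from its promoter: 1 peak in intron 2 of the gene and 8 peaks strung out between 159.6 and 439.9 kb upstream of its start site. The 9 peaks were chosen by position. They are the peaks that the list assigns to Adamts5 as the gene with the nearest start site, together with any peak whose midpoint fell within 100 kb of the gene body. The nearest-gene rule gave all 9, and the intron peak was the only 1 that the 100 kb rule also gave. Because the locus was picked out for its number of distal peaks, that number and those distances are described here and not tested. The scores, widths and repeats of the peaks were not used to choose them, but the locus was proposed with these values known, and they are described as well.

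Foxp4 is a forkhead transcription factor, and ChIP-seq, the sequencing of DNA pulled down with an antibody against it, was used to map where it binds. Stromal vascular cells of inguinal white fat from C57BL/6 mice were used. This primary preparation holds the cells of the tissue other than mature adipocytes, such as progenitors and fibroblasts, and whether several mice were pooled is not stated. They were grown for 3 days in DMEM with 20% serum and then differentiated towards beige adipocytes for 48 h in DMEM with 10% serum. The induction medium contained 1 µM dexamethasone, 0.5 mM isobutylmethylxanthine, 5 µM troglitazone, 5 µg/ml insulin and 50 nM T3. Such cells gave 1 library of Foxp4 ChIP DNA and 1 of input DNA, and the input was not analysed here. With 1 ChIP library there is no replicate error, and the depth of reads behind a peak is unknown. The peak list holds no expression values, so neither the cell type nor the activity of Adamts5 could be checked in it.

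Adamts5, also called aggrecanase-2, encodes a secreted metalloprotease that cleaves the large hyaluronan-binding proteoglycans aggrecan and versican. It is made as an inactive precursor that furin-type proteases process, it is inhibited by TIMP3, and it is taken up from the matrix by the endocytic receptor LRP1. Mice that lack Adamts5 have been described as having less white fat and more browning of white fat.

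In the RefSeq table of GRCm38.p6, the assembly behind mm10, Adamts5 spans chromosome 16, 85858157 to 85901125 (43.0 kb). The distances in the list place its start site at 85901125 for all 9 peaks, the right-hand end of the gene, so that the gene is read towards lower coordinates and the upstream side lies at higher ones. No member was annotated as a promoter, against 278 of the 3317 peaks in the list (8.38%), and the peak closest to the Adamts5 start site lay 20.0 kb from it. Of the other genes with at least 9 nearest peaks, Marcks, Mir21a and Pik3r1 also had no promoter peak, and Rn4.5s had 4. Adamts5 has no entry in the RefSeq promoter table. The windows of 2 neighbouring start sites are shown, which are not all the promoter windows nearby. Gm46558 has 2 windows, of which 1 is shown. The non-coding gene 4930556C24Rik, 31.4 kb from the Adamts5 body, has a window that is not shown. No Foxp4 peak overlapped the windows of these genes. Gm46558 is a predicted non-coding RNA read in the opposite direction, whose printed window (chr16:85899550-85899849, + strand) lies inside Adamts5, between 1.28 and 1.58 kb from the Adamts5 start site. Adamts1 is the paralogous neighbour of Adamts5 (chr16:85803064-85803363, - strand). Each window runs from 250 bases before to 50 bases after the start site, 5′ to 3′, and capitals mark the motif found.
Gm46558: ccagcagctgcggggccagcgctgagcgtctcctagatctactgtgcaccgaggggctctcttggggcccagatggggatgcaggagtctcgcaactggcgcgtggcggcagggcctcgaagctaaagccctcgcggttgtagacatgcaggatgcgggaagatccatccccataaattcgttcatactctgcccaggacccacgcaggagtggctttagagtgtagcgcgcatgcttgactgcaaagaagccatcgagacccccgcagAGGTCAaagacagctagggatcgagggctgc
Adamts1: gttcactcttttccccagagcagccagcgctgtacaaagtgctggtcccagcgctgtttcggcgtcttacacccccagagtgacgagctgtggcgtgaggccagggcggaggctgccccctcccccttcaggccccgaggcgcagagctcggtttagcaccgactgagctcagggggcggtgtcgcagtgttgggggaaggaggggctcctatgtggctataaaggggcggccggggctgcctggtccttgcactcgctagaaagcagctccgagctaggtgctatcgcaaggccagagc
No Foxp4 peak overlapped either window. Both strands were searched for the forkhead cores TGTTTAC and TATTTAC, the hexamers AGAACA (bound by the glucocorticoid receptor) and AGGTCA (bound by PPAR and other nuclear receptors), and CCAAT. The Gm46558 window held AGGTCA once, at base 270 on the printed strand, and none of the other motifs, and the Adamts1 window held none of the 5. Of all 32851 promoter windows of this length, 3.65% held TGTTTAC, 3.04% TATTTAC, 19.0% AGAACA, 16.3% AGGTCA and 37.4% CCAAT.

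**Figure D1:**
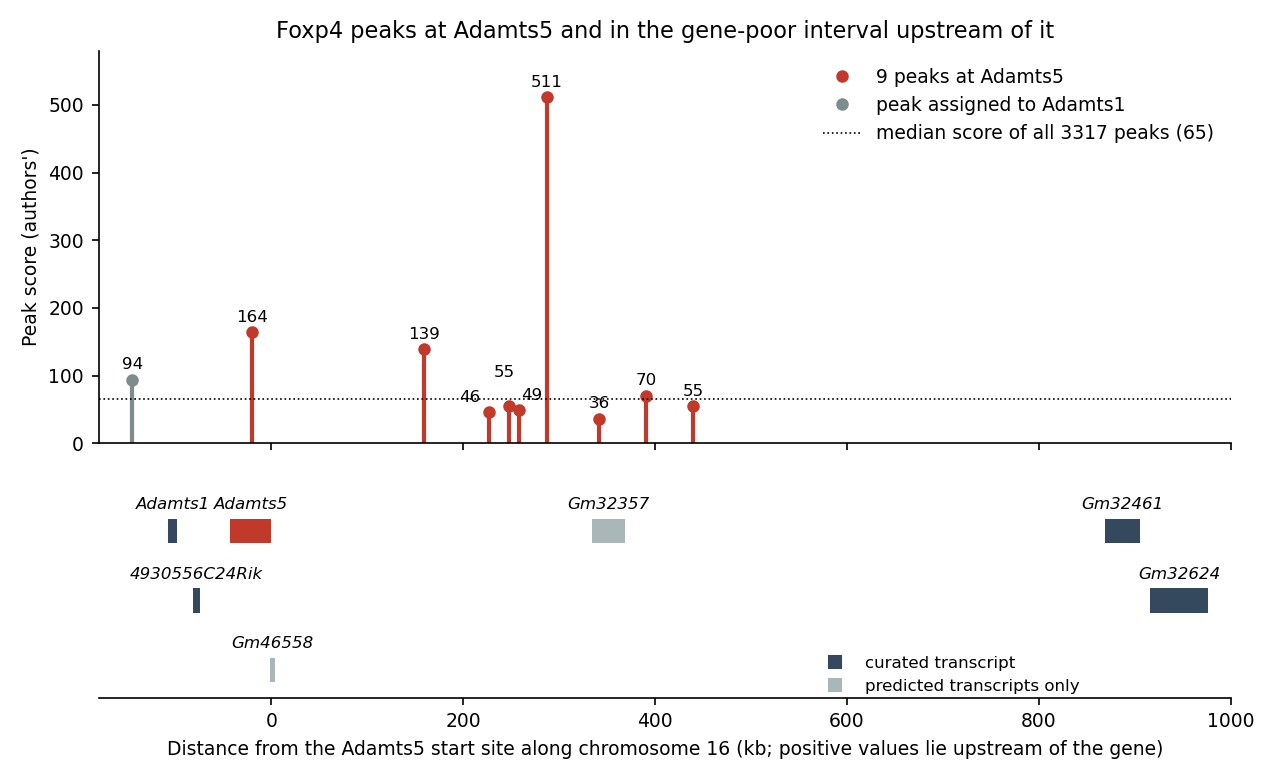
Foxp4 peaks along chromosome 16 around Adamts5. The upper panel gives each peak's score (y axis, the authors' whole-number score) against its distance from the Adamts5 start site in kb (x axis, positive values upstream), with the 9 Adamts5 peaks in red and the peak assigned to Adamts1 in grey. The lower panel gives gene bodies, dark for genes with a curated transcript and pale for those with predicted transcripts only. The highest peak, with a score of 511, stands 287.1 kb upstream, and no peak lies between 439.9 kb and the curated gene Gm32461.

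The peak inside the gene lay 20.0 kb downstream of the start site, in intron 2 of 7 (chromosome 16, 85880938 to 85881363). Its score was 164, which ranked 370 of the 3317 peaks and 22 of the 141 peaks on chromosome 16. The score is a whole number from the authors' peak calling, ranges from 13 to 2569 with a median of 65, and ranks peaks within this list. What it measures is not stated in the sources used here. The intron peak was annotated on a (TTG)n simple repeat, a short tandem repeat. Such repeats, counted on either strand, held 83 peaks of the list with a median score of 119, and the Adamts5 peak stood 29 among those 83.

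Upstream of the gene, the first peak was met 159.6 kb from the start site (86060459 to 86060910), with a score of 139. It was followed by a run of 3 weaker peaks within 32.3 kb. These scored 46 at 226.6 kb (86127410 to 86128107), 55 at 247 kb (86148425 to 86148725) and 49 at 258.4 kb (86159350 to 86159715). All 3 were below the median of the list.

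The strongest site of the locus came next, 287.1 kb upstream (86187914 to 86188478), with a score of 511. It ranked 44 of the 3317 peaks and 3 of the 141 on chromosome 16. Among the 706 peaks that lay more than 100 kb from the nearest start site it ranked 6, and it ranked 4 among the 538 of these without an annotated repeat. The second-highest member was the intron peak, with a score of 164.

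Beyond it the scores were 70 or lower, and only the 70 was above the median of the list. They were 36 at 341.9 kb (86242773 to 86243187), 70 at 390.7 kb (86291620 to 86291962) and 55 at 439.9 kb (86340863 to 86341245). The peak with a score of 36 was the weakest member and ranked 2669 in the list. From the intron peak to the last peak the 9 sites covered a span of 460.3 kb, of which the peaks themselves made up 3949 bp (0.858%).

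The authors' peak names run without a break from 1436 to 1444 over these sites, so no peak of that numbering was missing between them. The gaps between neighbouring members were 179.1, 66.5, 20.3, 10.6, 28.2, 54.3, 48.4 and 48.9 kb in order along the chromosome. All 8 were shorter than the median gap between neighbouring peaks in the list, 292.4 kb over 3296 gaps (quartiles 75.05 and 874.1), and shorter than the chromosome 16 median of 194.4 kb over 140 gaps. The longest, 179.1 kb, separated the intron peak from the upstream series. Within that series no gap was above 66.5 kb, a length that 23.3% of all gaps did not exceed. Short gaps follow in part from the choice of a locus with many peaks.

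The next peaks on either side fell outside the group. On the downstream side, a peak with a score of 94 (85756168 to 85756553), assigned to Adamts1, had its midpoint 101.8 kb from the Adamts5 body, 1.797 kb beyond the limit. The intron peak, the only member chosen by that limit, lay inside the gene. On the upstream side, the last member was 465.5 kb from the start site of the non-coding gene Gm32461 and 12.8 kb short of the point where that start site would have become the nearer. The next peak after it (87236011 to 87236501, score 220, on an RMER1B repeat) followed after a gap of 894.8 kb and was assigned to Gm32865.

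Taken by score, the sites fell into the quartile ranges of the list in roughly the shares that all peaks do. The 9 scores ran from 36 to 511 with a median of 55, against a median of 65 (quartiles 41 and 104) over all 3317 peaks. Of the 9, 3 lay above the upper quartile of the list, 5 between the quartiles and 1 below the lower quartile. The 8 upstream peaks had a median score of 55, against 62 (quartiles 39 and 98.75) for the other 698 peaks beyond 100 kb. With 1 library, whether these medians differ was not tested.

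Peak width did not follow the scores closely. The widths were between 301 and 698 bp with a median of 415 bp, against 393 bp (quartiles 333 and 487) in the list. The widest member, at 226.6 kb, had a score of 46, whereas the peak with a score of 511 was 565 bp wide. Spearman's rho between score and width was 0.18 over the 9 members and 0.38 over the list. These values are descriptions across peaks of 1 library.

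**Figure D2:**
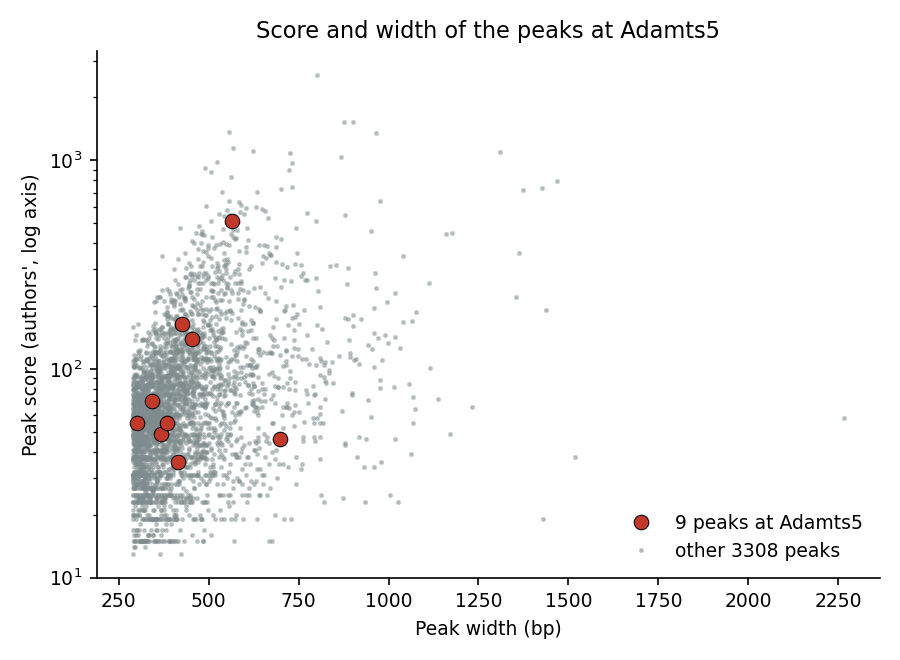
Score against width of every peak. Each point is a peak, with its width in bp on the x axis and its score on a log y axis; red points are the 9 peaks at Adamts5 and grey points are the other 3308 peaks. The red points lie inside the range of the grey ones, with 1 of them at 511 and 5 of them below the list's median of 65.

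Repeats were annotated at 2 of the 9 members (22.2%), against 23.3% of all peaks. Apart from the (TTG)n repeat in intron 2, the peak at 258.4 kb, with a score of 49, was annotated on MLT1E2. MLT1 elements are ancient long terminal repeats of the ERVL-MaLR family. No other peak in the list was annotated on MLT1E2, and 38 peaks lay on the ERVL-MaLR family, with a median score of 55.5. The member ranked 23 of these 38. The other 7 members, the peak of 511 among them, had no annotated repeat.

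Across genes, 9 nearest peaks is a rare number, though the choice of the locus rests on it. Of the 2462 genes that were nearest to any peak, 1908 had 1 peak, 9 had 6, none had 7 or 8, and 5 had at least 9 (0.203%). Marcks had 10, and Mir21a, Pik3r1 and Rn4.5s had 9 like Adamts5. The next below, with 6 each, were 1700019E08Rik, Col3a1, Dhrs3, Foxp1, Gm10248, Gm12724, Gm20125, Gm38407 and Irf2bp2. Rn4.5s, listed as an rRNA gene, compares poorly with Adamts5. Its 9 peaks spanned 125.4 kb although each lay within 23.2 kb of a start site, so they lie at more than 1 start site.

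Most of the Adamts5 peaks were far from its start site. Of the 9 peaks 8 lay more than 100 kb from the start site, against 21.3% of all peaks. These 8 were all upstream, which the nearest-gene rule fixed in advance. The Adamts1 start site lies 98.0 kb downstream of the Adamts5 start site, so a downstream peak beyond 100 kb would be assigned to another gene. At any distance, 47.0% of all peaks were upstream. Among the 523 genes with any peak beyond 100 kb, 394 had 1, and Marcks with 9 was the only gene with more than Adamts5. After Adamts5 came 1700019E08Rik with 6 and then Nova1 and Pik3r1 with 5 each.

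**Figure D3:**
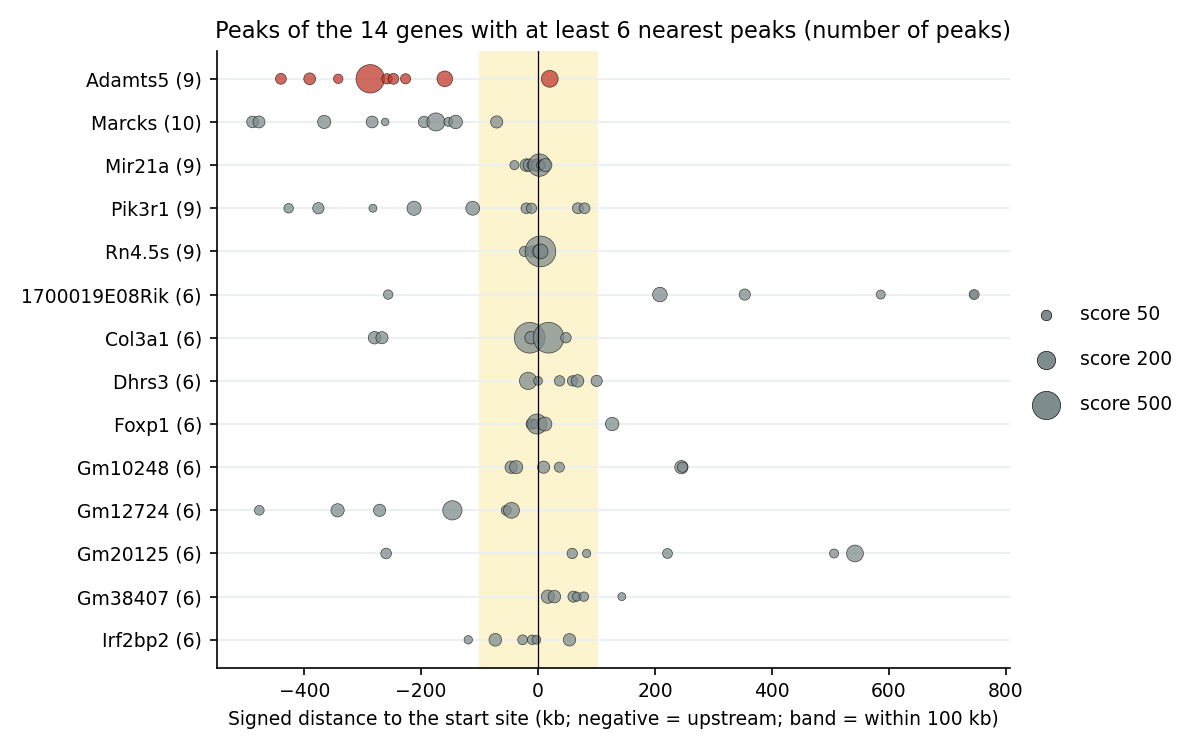
Positions of the peaks of the 14 genes that had at least 6 nearest peaks, with Adamts5 at the top in red. The x axis is the deposited signed distance in kb to the nearest start site listed under the gene's name (negative values upstream). The band marks 100 kb on either side, and the area of a point grows with the score up to 600 and is constant above. At Foxp1, Pik3r1 and Rn4.5s the distances refer to more than 1 start site, so their points do not show the spacing along the chromosome. Adamts5 has 1 point in the band and 8 to its left, and Mir21a and Rn4.5s have all 9 of theirs inside it.

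The gene closest to Adamts5 in its number of peaks beyond 100 kb was Marcks, with 8 peaks at Adamts5 and 9 at Marcks, which encodes an actin-binding substrate of protein kinase C. The Adamts5 peaks spanned 460.3 kb with a median gap of 48.7 kb, and the Marcks peaks spanned 418.0 kb on chromosome 10 with a median gap of 21.9 kb. All 9 Adamts5 peaks lay within 439.9 kb of the start site, and all 10 Marcks peaks were upstream within 488.3 kb and intergenic. The spread of scores differed in form. At Adamts5 the highest scores were 511 and 164 and the median 55, with 4 of 9 peaks at or above the list's median. At Marcks the highest were 193 and 98 and the median 71, with 8 of 10 at or above it.

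Pik3r1, a regulatory subunit gene of phosphoinositide 3-kinase, had a looser arrangement. At Adamts5 8 of 9 peaks were beyond 100 kb and 8 were upstream, and at Pik3r1 5 of 9 were beyond 100 kb and 7 upstream, over 582.2 kb on chromosome 13. The Pik3r1 distances, from 426.7 kb upstream to 79.6 kb downstream, cover less than that span, so they refer to more than 1 start site. At Adamts5 all 9 distances refer to 1 start site, so these counts do not have the same basis in both genes. The highest score was 511 at Adamts5 and 109 at Pik3r1. Mir21a, the gene of a microRNA, held its 9 peaks within 53.5 kb with a highest score of 308, and none was beyond 100 kb. These are single loci of 1 library, so the differences between them were not tested.

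The upstream peaks occupy a long interval without genes that have a curated transcript. From the end of Adamts5 to Gm32461 (86769926 to 86806513) the RefSeq table holds no gene with a curated transcript over 868.8 kb, and the next protein-coding gene, N6amt1, starts 1453 kb from Adamts5. All 8 peaks of this interval were assigned to Adamts5, which gives 0.921 peaks per 100 kb. By distance, 7 of the 8 lay on the Adamts5 side of its middle and the last lay 5.53 kb past the middle, and the remaining 428.9 kb up to Gm32461 held none.

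Few such intervals held as many sites. Over the mouse chromosomes there were 642 intervals of at least 500 kb between curated genes, with 331 peaks in all and 0.0468 peaks per 100 kb on average. Of these intervals 456 (71.0%) held no peak. The interval at Adamts5 had the third-highest number, shared with 1 other, and was also the third by peaks per 100 kb. Those with more were an interval with 10 peaks, all assigned to Marcks, and an interval with 9 peaks, of which 6 were assigned to Pik3r1 and 3 to Cd180. The other interval with 8 held 6 peaks assigned to Gm12724 and 2 assigned to Plpp3. These numbers describe how the peaks of this list fall. Because the locus was chosen for these same distal peaks, its rank here follows in part from that choice. The intervals include unsequenced and repetitive stretches in which peaks may not be callable, which was not tested.

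**Figure D4:**
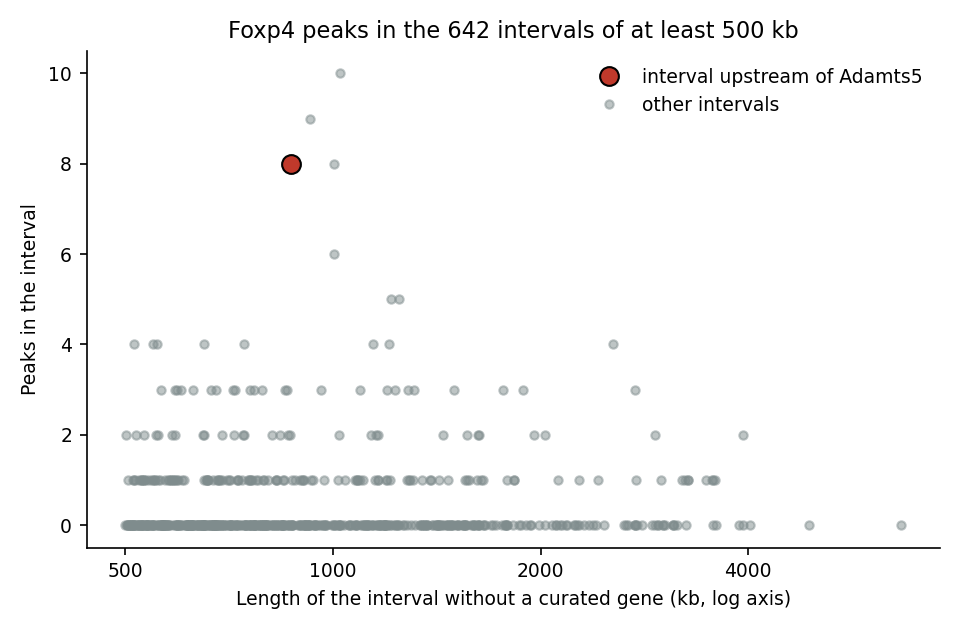
Number of Foxp4 peaks (y axis) in each interval of at least 500 kb without a curated gene, against its length in kb (x axis, log scale). The red point is the interval upstream of Adamts5, with 8 peaks over 868.8 kb, and the grey points are the other intervals. Most grey points are at 0, and 2 of them lie above 8 peaks.

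Density was counted from the same peaks, and the choice of region decided its size. The 460.3 kb span held 1.96 peaks per 100 kb, against 0.144 over chromosome 16 and 0.123 over all chromosomes, with each chromosome measured between its outermost annotated genes. The span begins and ends at peaks, which raises this value. When a window of that length was started at every peak of the list, 17 of 3317 windows (0.513%) held at least 9 peaks, the median was 2 and the highest 12. When such windows were moved over the chromosomes in steps of 10 kb, 0.0501% held at least 9. Close to the gene the density was below that of the span. The gene body with 100 kb on each side held 1 peak over 243.0 kb, or 0.412 per 100 kb. That value rests on 1 peak and was above those of chromosome 16 and of all chromosomes. Of 26219 curated genes, 72.0% had no peak within 100 kb of the body.

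Nearest-gene assignment does not show which gene a site acts on, and other transcripts lie in reach of the same peaks. The weakest member, with a score of 36, lay inside Gm32357 (86235834 to 86269788), a long non-coding RNA that has predicted transcripts only. The list calls this peak intergenic. In all, 6 of the 9 members lay within 100 kb of the Gm32357 body, against 1 within 100 kb of the Adamts5 body. Of the 8 members annotated as intergenic this was the 1 inside a gene body of the RefSeq table, as were 321 of the 1674 intergenic peaks in the list (19.2%). No member lay in Gm46558, which overlaps the start of Adamts5.

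On the other side of the gene, the non-coding gene 4930556C24Rik and Adamts1 held no peak. Adamts1, a related protease that also cleaves versican, lies 55.0 kb from Adamts5 (85793827 to 85803113), and its assigned peak with a score of 94 lay 37.5 kb past its end. That peak and the Adamts5 intron peak were both within 100 kb of the Adamts1 body. Cyyr1, the next protein-coding gene, had no assigned peak and none within 100 kb, its closest peak being 205.5 kb away.

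Of the other members of the protease family, none approached 9 peaks. Among the 18 other ADAMTS genes, 8 had at least 1 nearest peak, against 9.11% of 21887 protein-coding genes, and 13 had a peak within 100 kb of the gene body, against 27.6%. These 18 genes are long, with a median length of 133.1 kb against 17.2 kb for protein-coding genes, which gives them more room for peaks. How far length sets these shares was not tested. The median number of nearest peaks over the 18 genes was 0. Adamts15, a proteoglycan-cleaving member, had 3 peaks with scores of 31 to 82, and Adamts2, which processes procollagen, had 3 with scores of 29 to 38. Adamts17 had 2 assigned peaks, of 24 and 38, and held 3 peaks in its body.

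The remaining family members with an assigned peak had 1 each. Besides Adamts1, these were Adamts6 with a score of 192 at 1.45 kb upstream, Adamts7 with 103 in intron 23, Adamts9 with 63 in intron 18 and Adamts19 with 56 in intron 2. The peak of 192 had the highest score among those assigned to the other ADAMTS genes and lay below the 511 at Adamts5. Adamts4 and Adamts8, further members that can cleave aggrecan, had no assigned peak. Adamts16 also had none assigned but held 1 peak in its body. Of 7 genes of ADAMTS-like and related proteins, which lack the protease domain, 3 had 1 assigned peak each: Adamtsl1 (score 55), Adamtsl2 (37) and Thsd4 (38).

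Sites also lay at some genes of the substrates and regulators of the enzyme. Of 8 hyalectan and link protein genes only Vcan, encoding versican, had assigned peaks, with scores of 146 at 85.8 kb and 34 at 22.5 kb upstream. Acan, which encodes aggrecan, had none. Of 12 genes for inhibition, clearance, activation and hyaluronan, 3 had assigned peaks. Lrp1, the clearance receptor, had 3, with scores of 69 and 34 in intron 6 and 55 at a promoter. Furin, the activating protease, had 1 with a score of 45 at 38.4 kb upstream. Has2, a hyaluronan synthase, had 2 assigned peaks, with scores of 121 and 58 at 282.0 and 256.5 kb upstream. Another peak, assigned to a different gene, lay inside the Has2 body. Has1 and Timp2 had no assigned peak but held 1 each in their bodies. Timp3 had no assigned peak. Of 4 small leucine-rich proteoglycan genes, Dcn, encoding decorin, had 2 promoter peaks with scores of 124 and 40, and Fmod, encoding fibromodulin, had 1 of 76. Bgn, of the same group, had no assigned peak but held 1 in its body. Counted within 100 kb of the gene body, a peak was present at 4 of the 7 ADAMTS-like and related genes, 3 of the 8 hyalectan and link protein genes, 8 of the 12 genes for inhibition, clearance, activation and hyaluronan, and all 4 small leucine-rich genes. Over the 49 listed genes without Adamts5, 17 (34.7%) had an assigned peak, against 9.11% of protein-coding genes, and 7 of the 17 had at least 2. Within 100 kb 32 of the 49 (65.3%) had a peak, against 27.6%. The median length of the 49 genes was 36.3 kb, against 17.2 kb for protein-coding genes, and whether the shares differ beyond gene length was not tested.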

How the data were processed

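The deposited file holds the peaks of 1 Foxp4 ChIP library on mm10, called into a narrowPeak file and annotated by the authors with HOMER annotatePeaks.pl, per the file headers. Per the submitters' processing notes the tools included MACS2, Bowtie2, SAMtools, Picard and deepTools 3.3.0, with no settings given. The deposited score is the whole-number score of each peak, and no source used here states its scale. Distances to the nearest start site, annotations and repeats are those deposited by the authors. Nor is it stated how the input entered the peak calling.

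All 3317 peaks were kept, and 1 line without a peak was left out. A peak's position was its midpoint. Gene bodies came from a RefSeq table (GRCm38.p6), in which 2459 of 2462 nearest genes were found by gene number. A curated gene has an NM or NR transcript. Promoter sequences were RefSeq's of the same build, and the sequences under the peaks were not used here. Counting was checked on simulated positions, and Python 3.11.15 with pandas 2.3.3 was used. With 1 library no test was run.

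The members, gene lists and comparisons were chosen with earlier results of these data known. Genes were named by rule: Adamts5, genes in or next to the span, listed genes with a peak, and genes nearest to it by number of peaks. Acan, Adamts4, Adamts8, Adamts16, Bgn, Has1, Timp2, Timp3, Nova1, Cd180 and Plpp3 were named after their values were seen.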

Additional observations from a re-analysis of the deposited data

How the results depend on the processing

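The number of peaks around Adamts5 was 9 by nearest gene alone, 9 with a score of at least 30 and 9 when peaks under 1 kb apart were joined, and 10 when the window was widened to 200 kb. It was 1 within 50 kb of the gene body and 4 when peaks below the list's median score were left out. The median score stayed at 55 when it was recomputed by nearest gene alone and with a score of at least 30. The rank of Adamts5 by number of peaks was 2, shared with 3 genes. It was 5, shared with 6 other genes, over peaks at or above the median score, where Adamts5 had 4. It was 364, shared with 1739 others, when peaks beyond 100 kb were left out, and 2193 of 26219 curated genes, shared with 5159 others, by peaks within 100 kb of the gene body, and in both of these Adamts5 had 1 peak. The density was 1.96 peaks per 100 kb over the span and 0.412 over the gene body with 100 kb on each side. The changes under distance limits follow from their construction, since 8 of the 9 peaks lie beyond 100 kb, and those under the score limit from the 5 members that score below the list's median. No paired analysis was possible because the series has 1 ChIP library and 1 input library and no result comes from a test. Without replicates or read depth, the error of a score is unknown.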
